A study of Rattus norvegicus with 9 samples.

Results

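Neurosteroid synthesis was followed through 10 genes: the cholesterol carriers Star and Tspo, the P450 enzymes Cyp11a1, Cyp17a1, Cyp19a1 and Cyp7b1, the reductase Srd5a1, and the dehydrogenases Hsd11b1, Hsd17b4 and Akr1c14. They were found by their gene name in the array files. Every probe with 1 of these names was taken, which gave 12 of 45598 probes and 10 of 34912 gene names. Star and Cyp11a1 had 2 probes each and the other genes 1 each. None of the 8 member probes that could be tested differed between the groups at an adjusted p under 0.05, and neither did any other of the 30215 tested probes. For each of the 8 the level in every rat and the interval of the difference were computed.

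The RNA came from the amygdala, both sides, of 9 female spontaneously hypertensive rats (SHR, an inbred strain with high blood pressure), with 1 rat on each array. All of the rats had lost both ovaries at 4 weeks of age, so no group with intact ovaries enters the comparison. After 1 week the control group (OV, replicates 1, 2, 3 and 5) received an Alzet minipump with the vehicle PEG. The treated group (OV+E2, replicates 1 to 5) received a pump with estradiol in PEG at 0.33 mg/ml, which released 2 µg a day. The pumps ran for 4 weeks and the rats were 9 weeks old at death. The labels name no other gland as removed in either group.

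Neurosteroids are steroids made in the brain from cholesterol or from steroids that arrive with the blood. Cholesterol is carried into mitochondria, where Cyp11a1 cuts its side chain to give pregnenolone, and later enzymes turn pregnenolone into progesterone, androgens and estrogens or into reduced steroids such as allopregnanolone, which acts on GABA-A receptors. The amygdala is known as a site of aromatase, the enzyme that makes estradiol, and is rich in receptors for sex steroids and glucocorticoids.

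The 75th percentile of the processed signal was 556.8 to 737.6 on 8 arrays and 129.7 on OV replicate 3. That array also held fewer probes well above background (24225, against 29052 to 31395) and correlated less with the others (mean r of 0.932, against 0.981 to 0.984). For that rat alone the authors' deposited value table departs from the scanner file, with r = 0.938 across probes, against at least 0.9999 for the other 8 rats. The members' differences are therefore given with and without OV replicate 3. Slide 1 held OV replicates 1, 2 and 3 with OV+E2 replicates 1 and 2, and slide 2 held OV replicate 5 with OV+E2 replicates 3, 4 and 5. In such tissue RNA fewer cells of a type and less RNA per cell cannot be told apart.

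The probes of the dimmest enzymes decide what could be measured, so the last 30 of their 60 bases are shown, 5′ to 3′ as the files give them. Capitals mark AATAAA, the letters of the commonest polyadenylation signal. Hsd3b2, an enzyme next in the pathway, is added because its 1 probe is listed for 3 RefSeq transcripts.
Star, A_44_P538521: tacacacaaatactggaatccctctgctga
Star, A_64_P154932: gaggcttagAATAAAggttctgcagtgtct
Cyp11a1, A_43_P11896: cttactcaggaggttAATAAAcacataaat
Cyp11a1, A_64_P018756: gaccaagttcaacctcatcctgatgcctga
Cyp19a1, A_44_P212582: atgacttgtccttgcatctagatgaggaca
Hsd3b2, A_44_P533955: accctgagcaaggaatggggcctccacctt

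These lie, in rat build rn4 as the files give it, at chr16:70640879-70640938 and chr16:70642580-70642639 (Star, minus strand), chr8:61805419-61805478 and chr8:61805170-61805229 (Cyp11a1, plus strand), chr8:57651982-57652041 (Cyp19a1, minus strand) and chr2:193337952-193338011 (Hsd3b2, minus strand). The Star probes start 1701 bases apart and the Cyp11a1 probes 249 bases apart. AATAAA or ATTAAA, searched on the strand of the probe alone, occurred in 4 of the 12 member probes and in 12.6% of all probes. Exon annotation of that build was not used here.

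Levels are log2 of the processed signal minus the 75th percentile of the array, so 0 is the 75th percentile, and replicates are always given in the order of their numbers. Differences are OV+E2 minus OV on that log2 scale with the standard error (SE) of limma's fit. Of the 8 tested member probes 5 were higher and 3 lower in OV+E2, where 50.2% of all probes were higher. None passed an adjusted p under 0.05, the share over all 30215 probes being 0%, and none had an unadjusted p under 0.05, against 10.4% of all probes. In none of them did the groups separate without overlap, against 6.89% of all probes. Their median absolute difference was 0.21, against 0.20 over all probes. Without OV replicate 3, 6 were higher and 2 lower, where 52.4% of all probes were higher. Again none had an adjusted p under 0.05 (0.00331% of all probes) or an unadjusted p under 0.05 (14.1% of all probes), and in none were the groups separate (10.4% of all probes). Their median absolute difference was then 0.096, against 0.11 over all probes.

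**Figure D1:**
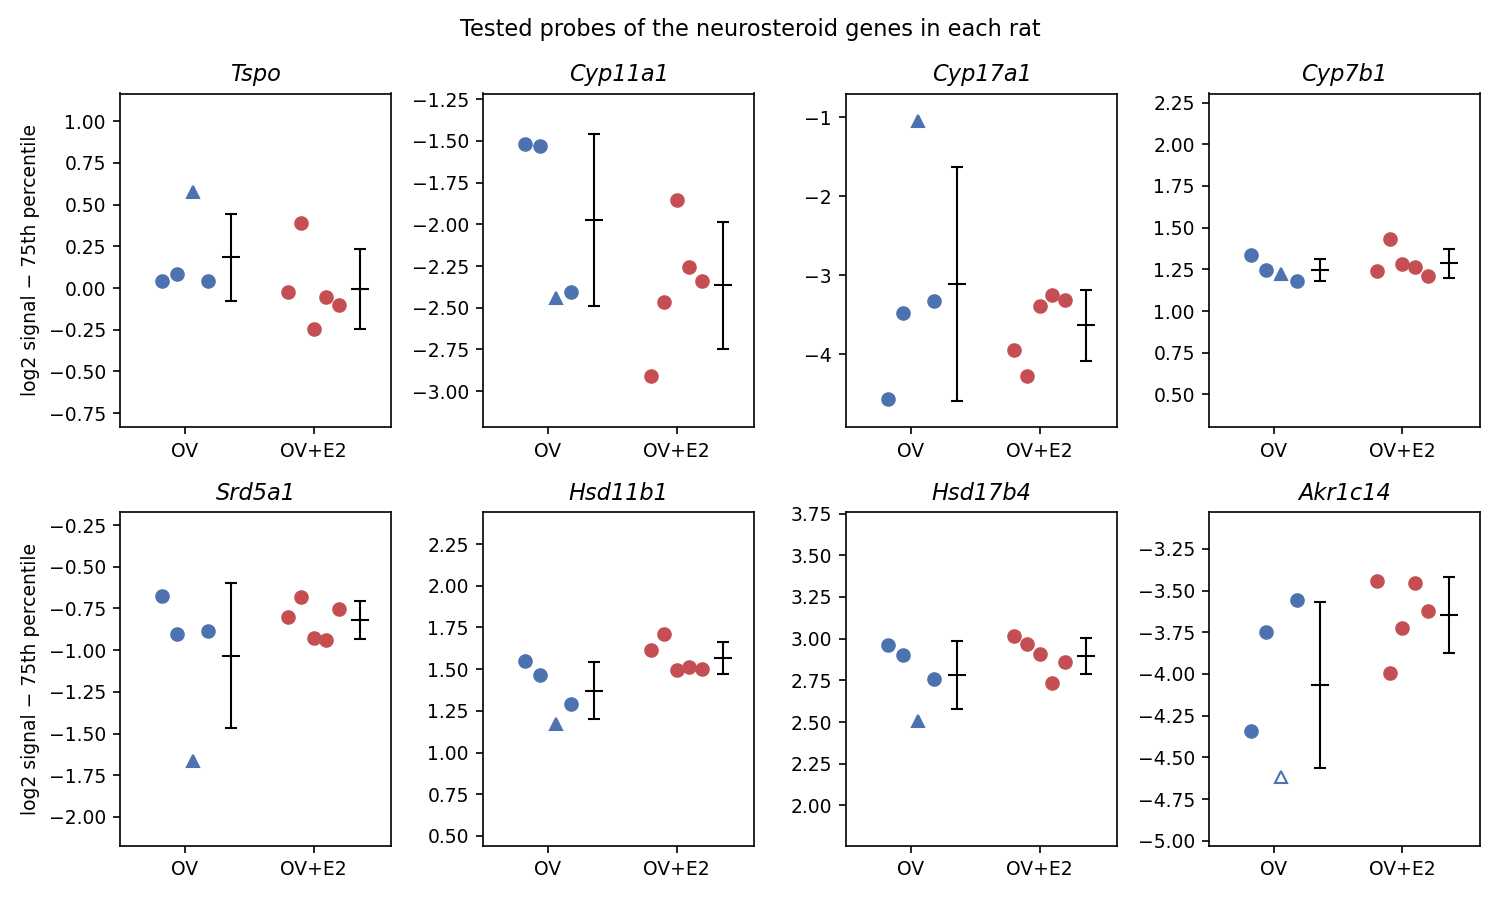
Level of each tested member probe in each rat, as log2 signal minus the 75th percentile of the array, for 4 OV and 5 OV+E2 rats, on axes that differ between panels. Triangles are OV replicate 3, an open symbol is a probe not well above background on that array, and the black marks are group mean and SD. The groups overlap in all 8 panels, and OV replicate 3 is the highest OV rat for Tspo and Cyp17a1 and the lowest for Cyp11a1, Srd5a1, Hsd11b1, Hsd17b4 and Akr1c14.

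Cholesterol import is the first step. Star, the carrier that admits cholesterol to mitochondria in adrenal and gonad, was near the lower limit of the arrays. Its probe A_44_P538521 passed the scanner's background test (well above background) in 1 of the 4 control rats and 1 of the 5 treated rats, with levels of −5.75 to −4.84 in OV and −5.75 to −5.06 in OV+E2. Its probe A_64_P154932 passed that test on no array. No fold is given for Star, since both groups were dim.

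Tspo, the translocator protein of the outer mitochondrial membrane, is used as a marker of activated microglia. It is printed in 10 spots on each array (chr7:121599117-121599176), whose log2 signals had an SD of 0.0429 to 0.073 within an array. Its level in OV was 0.040, 0.084, 0.58 and 0.040. In OV+E2 it was −0.023, 0.39, −0.24, −0.056 and −0.10. Before scaling, the signal of OV replicate 3 was 193.2, the lowest of the 9 arrays. On the scaled levels 3 OV rats lay close together and OV replicate 3 stood above them. OV+E2 replicate 2 stood above the other treated rats, and the groups overlapped. The difference was −0.19 (SE 0.16, 95% interval −0.56 to 0.18, limma adjusted p = 0.566). Without OV replicate 3 it was −0.061 with an interval of −0.37 to 0.24. With slide as a block it was −0.096, and within slides 1 and 2 it was −0.049 and −0.17.

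Cyp11a1, the side-chain cleavage enzyme, was well above background on all 9 arrays with probe A_43_P11896 and on none with A_64_P018756. The first of these read −1.52, −1.53, −2.44 and −2.40 in OV. It read −2.91, −2.47, −1.85, −2.26 and −2.34 in OV+E2. OV replicates 1 and 2 were higher than every treated rat, and OV replicates 3 and 5 lay inside the treated range. The difference was −0.39 (SE 0.27, interval −1.01 to 0.22, limma adjusted p = 0.530), and without OV replicate 3 it was −0.55 with an interval of −1.18 to 0.083. In the authors' deposited table it was −0.59 (interval −1.13 to −0.047, unadjusted p = 0.0361, limma adjusted p = 0.229). The sign differed between slides, −0.86 on slide 1 and 0.25 on slide 2, and the block by slide gave −0.43. All of these values come from 1 probe.

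Cyp17a1, which turns progestins toward androgens, varied most among the tested members (chr1:251965532-251965591). Its OV levels were −4.57, −3.48, −1.05 and −3.33. Its OV+E2 levels were −3.95, −4.27, −3.39, −3.26 and −3.31. Before scaling, the signal of OV replicate 3 was 62.5, inside the range of 29.3 to 74.2 of the other rats. On the scaled levels OV replicate 3 stood far above all other rats and OV replicate 1 below them, with the remaining rats mixed. The within-group SD was 1.03 (percentile 98.3 among tested probes), and 0.537 without OV replicate 3 (percentile 94.4). The difference of −0.53 (SE 0.61, interval −1.90 to 0.85, limma adjusted p = 0.651) became 0.16 (interval −0.63 to 0.94) without OV replicate 3 and 0.30 in the authors' deposited table. On slide 1 alone it was −1.08, on slide 2 alone 0.011, and the block by slide gave −0.66, so no direction is given for this gene.

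Cyp19a1, aromatase, passed the background test in 0 of 4 control and 2 of 5 treated rats. Its measured level in OV was −6.33, −7.14, −5.41 and −7.27. In OV+E2 it was −5.04, −6.20, −4.43, −6.28 and −5.17. The groups overlapped through OV replicate 3, whose scaled level lay above OV+E2 replicates 2 and 4 although its spot did not pass the background test. Before scaling, its processed signal of 3.06 was the lowest of the 9 arrays, against 8.45 and 8.57 in those 2 treated rats. The 75th percentile of that array was 129.7, so its level here is no sign of more Cyp19a1 signal. The 2 treated rats with a reading above background were replicates 3 and 5. No fold is given, since 3 of the 5 treated readings and all 4 control readings failed the background test. The measured means were −6.54 in OV and −5.43 in OV+E2. An exact two-sided permutation test over the 126 groupings of the rats gave p = 0.0873, where the smallest p it allows is 0.00794. It used the scaled level of OV replicate 3 as it stands. Without OV replicate 3 the groups did not overlap, by a gap between −6.33 and −6.28, and both readings beside that gap were below the background criterion. Among tested probes 5.02% separated in that direction, but Cyp19a1 is not 1 of them, and the share among dim probes was not computed. With no filter on dim probes limma gave 1.11 (SE 0.50, adjusted p = 0.484). Both this value and the permutation p rest mostly on readings that failed the background test, so the size of the difference is not measured.

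**Figure D2:**
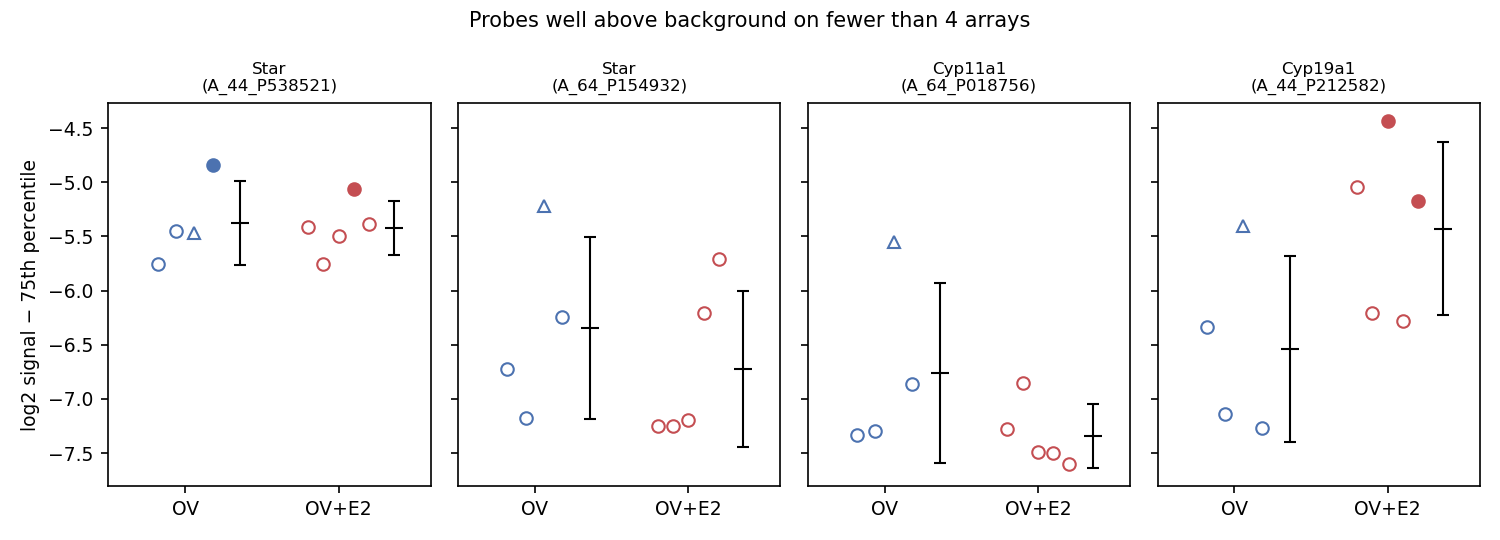
Level of the 4 member probes that were well above background on fewer than 4 arrays, as log2 signal minus the 75th percentile, in 4 OV and 5 OV+E2 rats. Filled symbols are readings well above background, open symbols are not, triangles are OV replicate 3 and black marks are group mean and SD. Filled symbols appear for Star A_44_P538521 in 1 rat of each group and for Cyp19a1 in 2 treated rats.

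Cyp7b1, the hydroxylase that converts dehydroepiandrosterone and oxysterols to hydroxylated forms, had the smallest within-group SD of the tested members (chr2:103103702-103103761). Its level in OV was 1.34, 1.25, 1.22 and 1.18. In OV+E2 it was 1.24, 1.43, 1.28, 1.26 and 1.21. Every rat lay within a narrow band and the groups interleaved. OV replicate 3 was not apart here. The within-group SD was 0.078 (percentile 3.44 among tested probes), and 0.084 without OV replicate 3 (percentile 16.8), where the median SD of all tested probes went from 0.281 to 0.151. The difference was 0.039 (SE 0.085, interval −0.15 to 0.23, limma adjusted p = 0.815). As a ratio that interval runs from 0.899 to 1.17, and without OV replicate 3 from 0.91 to 1.15. The block by slide gave 0.069, and slides 1 and 2 gave 0.066 and 0.074.

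Srd5a1, the reductase that begins the route from progesterone to allopregnanolone, read −0.68, −0.91, −1.67 and −0.89 in OV (chr17:3878645-3878704). It read −0.80, −0.68, −0.93, −0.94 and −0.75 in OV+E2. Apart from OV replicate 3, which was lower than all others, the rats of both groups occupied the same range. The difference was 0.22 (SE 0.19, interval −0.21 to 0.64, limma adjusted p = 0.572), and without OV replicate 3 it was 0.0044 with an interval of −0.20 to 0.21. Within slide 1, which holds that array, it was 0.34, within slide 2 it was 0.014, and with slide as a block 0.22.

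Akr1c14, the hydroxysteroid dehydrogenase that completes allopregnanolone, was dim (chr17:77317088-77317147). It passed the background test in 3 of 4 control and 5 of 5 treated rats. Its level in OV was −4.34, −3.75, −4.62 and −3.55. Under estradiol it was −3.44, −3.99, −3.72, −3.46 and −3.62. OV replicates 1 and 3 were lower than every treated rat, while OV replicates 2 and 5 lay among them. The difference was 0.42 (SE 0.23, interval −0.097 to 0.93, limma adjusted p = 0.514), and 0.23 without OV replicate 3 (interval −0.22 to 0.68). On slide 1 it was 0.52 and on slide 2 −0.046, and the fit with slide as a term gave 0.30. With normexp background correction, where the median of all probes moved to −0.11, it was −0.18. That setting also adds an offset of 50 to the signal, and the cause of the change of sign was not tested.

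Hsd11b1, which regenerates active glucocorticoid from its inert keto form, had the smallest limma p of the 8 tested members over all 9 arrays (chr13:109063624-109063683). Its level in OV was 1.55, 1.47, 1.17 and 1.29. The treated rats read 1.62, 1.71, 1.49, 1.51 and 1.503. OV replicates 2, 3 and 5 lay below every treated rat, and OV replicate 1 lay above treated replicates 3, 4 and 5. The difference was 0.20 (SE 0.11, interval −0.042 to 0.44, unadjusted p = 0.0955, limma adjusted p = 0.512), and an exact two-sided permutation test gave p = 0.0794. Without OV replicate 3 it was 0.13 (interval −0.064 to 0.33, unadjusted p = 0.161), and Cyp11a1 then had the smallest p (0.0804). The difference of Hsd11b1 was 0.27 within slide 1 and 0.21 within slide 2. With slide as a block it was 0.25 (unadjusted p = 0.0493, limma adjusted p = 0.652).

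Hsd17b4, a peroxisomal enzyme that oxidises estradiol to estrone and also acts on fatty acids, read 2.96, 2.90, 2.50 and 2.76 in OV (chr18:45251361-45251420). It read 3.01, 2.96, 2.91, 2.73 and 2.86 in OV+E2. OV replicate 3 was the lowest rat and the others interleaved. The difference was 0.11 (SE 0.12, interval −0.15 to 0.38, limma adjusted p = 0.619), or 0.021 without OV replicate 3 (interval −0.17 to 0.21). On slide 1 the difference was 0.20, on slide 2 it was 0.074, and the block by slide gave 0.15.

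**Figure D3:**
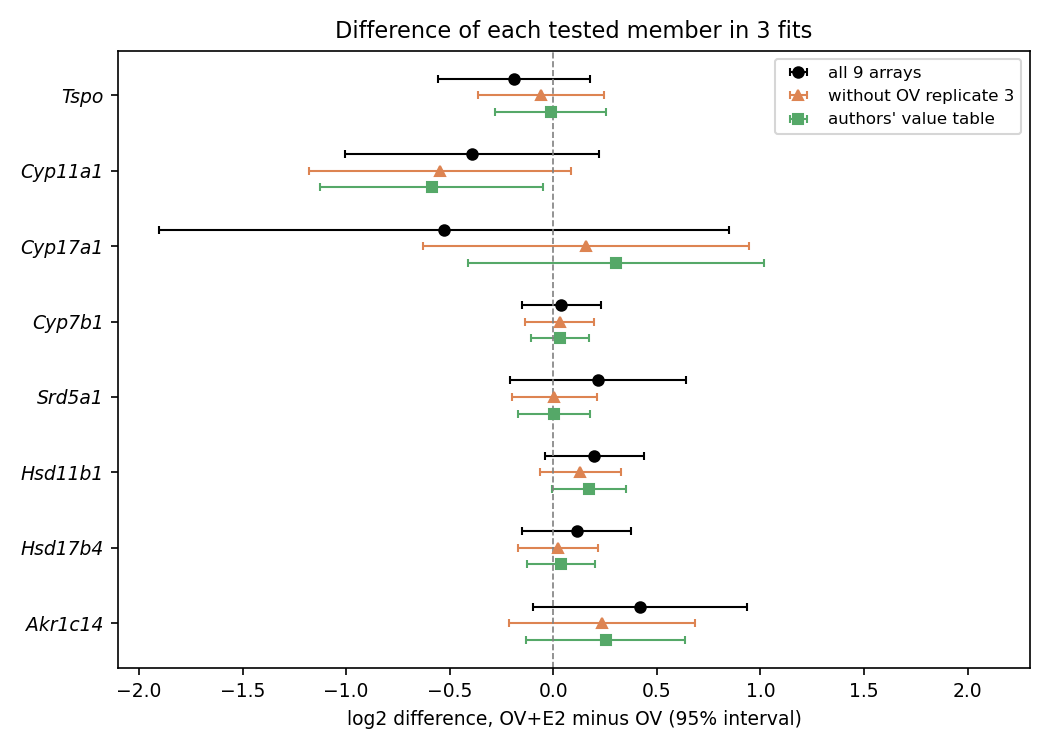
Log2 difference OV+E2 minus OV of the 8 tested member probes with 95% intervals from limma, over all 9 arrays (circles), without OV replicate 3 (triangles) and from the authors' deposited value table (squares). Nearly all intervals include 0, the exception being Cyp11a1 in the authors' table (−1.13 to −0.047), and Cyp17a1 changes sign between fits.

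The other genes of the pathway were read from 5 lists, with 1 probe, the brightest, for each gene. None of their members passed an adjusted p under 0.05, where 0% of all probes did. Of 15 genes for sterol supply and electron transfer, all tested, 7 were higher and 8 lower. Among them 1 had an unadjusted p under 0.05, higher, against 3.21% of all probes in that direction. Of 19 tested dehydrogenases and reductases beside the members, 7 were higher and 12 lower. An unadjusted p under 0.05 was found for 3, all lower, against 7.17% of all probes in that direction. Hsd3b2 and Akr1d1 passed the background test in only 2 of 5 treated rats each, and Akr1c13 in 5 of 5. Because 2 of the 3 calls thus rest on dim treated readings, no conclusion is drawn from this count. Of 8 tested P450 enzymes 3 were higher and 5 lower, with 1 at an unadjusted p under 0.05, higher, against 3.21% of all probes. Among 5 tested transcription factors of steroidogenic genes and 19 tested receptors none had an unadjusted p under 0.05 over all 9 arrays. The list medians were −0.011, −0.020, −0.061, 0.16 and 0.047 in that order, against 0.0011 over all probes. Without OV replicate 3 they were 0.058, −0.068, −0.040, 0.17 and 0.031. Of the 5 genes with an unadjusted p under 0.05, Akr1d1 had a p of 0.0728 in limma's fit without that array, and the other 4 had 0.000827 to 0.0226. In that fit 4 further genes had an unadjusted p under 0.05, where 5.86% of all probes were higher and 8.26% lower at that threshold. Higher were the transcription factors Cebpb (0.41) and Creb1 (0.17) and the receptor Paqr5 (0.35), and lower was the estrogen receptor Esr1 (−0.28).

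Downstream of Cyp11a1, Hsd3b2 is the dehydrogenase that makes progesterone from pregnenolone. Its level in OV was −3.39, −2.91, −2.05 and −2.76. Under estradiol it was −3.66, −3.90, −6.87, −5.07 and −5.99. The groups did not overlap, as for 4% of all probes in that direction, and treated replicates 3, 4 and 5, all on slide 2, were not well above background. The probe was thus tested through its readings in OV (4 of 4 above background, against 2 of 5 in OV+E2), and the size of the difference is not measured for slide 2. The measured values gave −2.32 (SE 0.65, limma adjusted p = 0.289), −2.08 without OV replicate 3 and −0.98 after normexp. Within slide 1, where every reading passed the background test, the difference was −0.997, and within slide 2 the measured values gave −3.21. Its probe matches 3 RefSeq transcripts, so related dehydrogenases of this family cannot be told apart.

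Akr1d1, the reductase that forms the bent steroid ring of bile acids, read −4.75, −4.33, −3.71 and −3.60 in OV. It read −4.74, −4.38, −7.37, −5.93 and −5.33 in OV+E2. Here too treated replicates 3, 4 and 5 were the lowest and were not well above background, while replicates 1 and 2 lay within the OV range. The reading of OV replicate 3 also failed that test. With 4 of 9 readings below the criterion the size of the difference is not measured. The measured values gave −1.45 (SE 0.57, limma adjusted p = 0.433), −1.32 without OV replicate 3, −0.30 within slide 1 and −2.61 within slide 2.

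Akr1c13, a hydroxysteroid dehydrogenase of the family of Akr1c14, is the RefSeq name of a probe that the files call Akr1c12. Its level in OV was −4.19, −3.86, −3.79 and −4.11. The treated rats read −4.69, −4.49, −5.06, −4.86 and −4.69. All treated rats lay below all controls, as for 4% of all probes. Of the controls, replicate 3 was not well above background. The difference was −0.77 (SE 0.14, limma adjusted p = 0.251), −0.70 without OV replicate 3, −0.64 within slide 1 and −0.76 within slide 2.

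Stard5, a carrier of sterols in the cytosol, read −1.89, −1.91, −2.04 and −2.14 in OV. It read −1.85, −1.68, −1.63, −1.78 and −1.75 in OV+E2, above every control, as 2.89% of all probes did. The difference was 0.25 (SE 0.093, limma adjusted p = 0.407), 0.24 without OV replicate 3, 0.18 within slide 1, 0.41 within slide 2 and 0.049 after normexp. Cyp46a1, the neuronal enzyme that turns cholesterol into a hydroxysterol able to leave the brain, read 1.23, 1.15, 0.24 and 1.38 in OV. It read 1.53, 1.45, 1.67, 1.54 and 1.63 in OV+E2, again above every control. The difference was 0.57 (SE 0.21, limma adjusted p = 0.417), and 0.31 without OV replicate 3, the lowest rat. Within slides 1 and 2 it was 0.62 and 0.23.

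**Figure D4:**
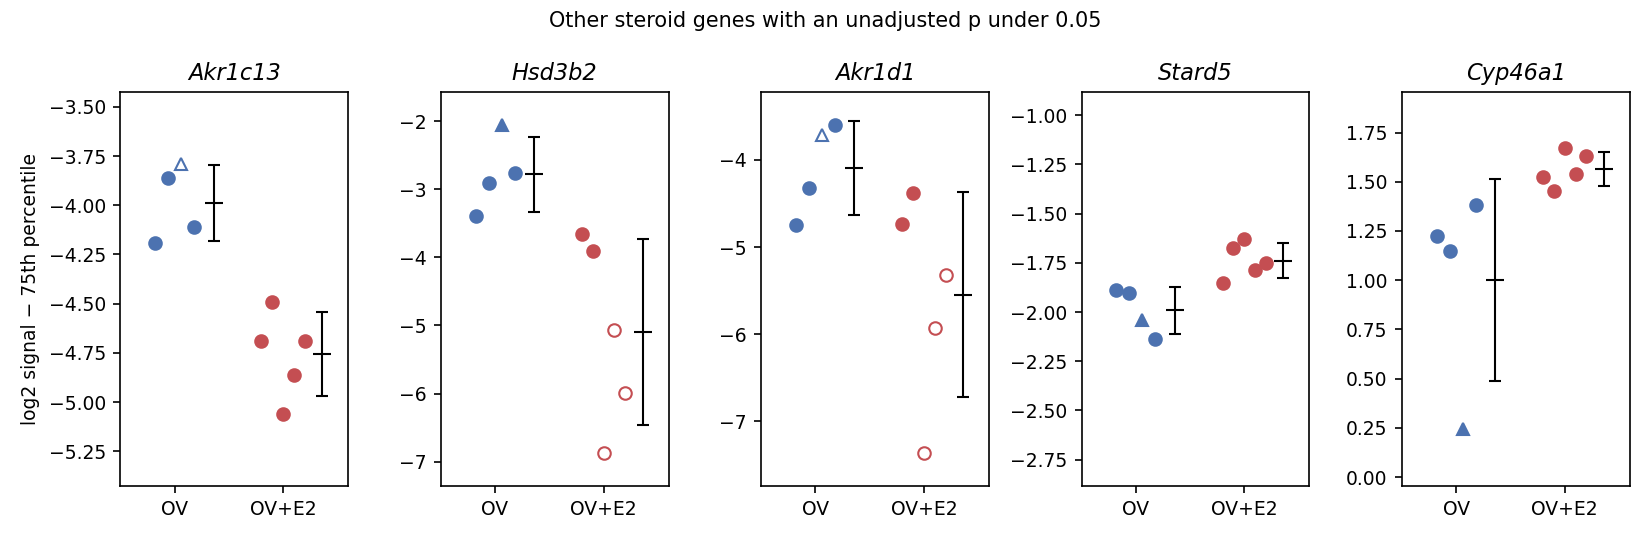
Level of the 5 other steroid genes with an unadjusted p under 0.05 in each rat, as log2 signal minus the 75th percentile of the array, for 4 OV and 5 OV+E2 rats. Open symbols are readings not well above background, triangles are OV replicate 3 and black marks are group mean and SD. Hsd3b2 and Akr1d1 have open symbols in treated replicates 3, 4 and 5, and only Akr1d1 shows groups that overlap. The 5 genes were chosen by p, and groups did not overlap for 6.89% of all probes.

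**Figure D5:**
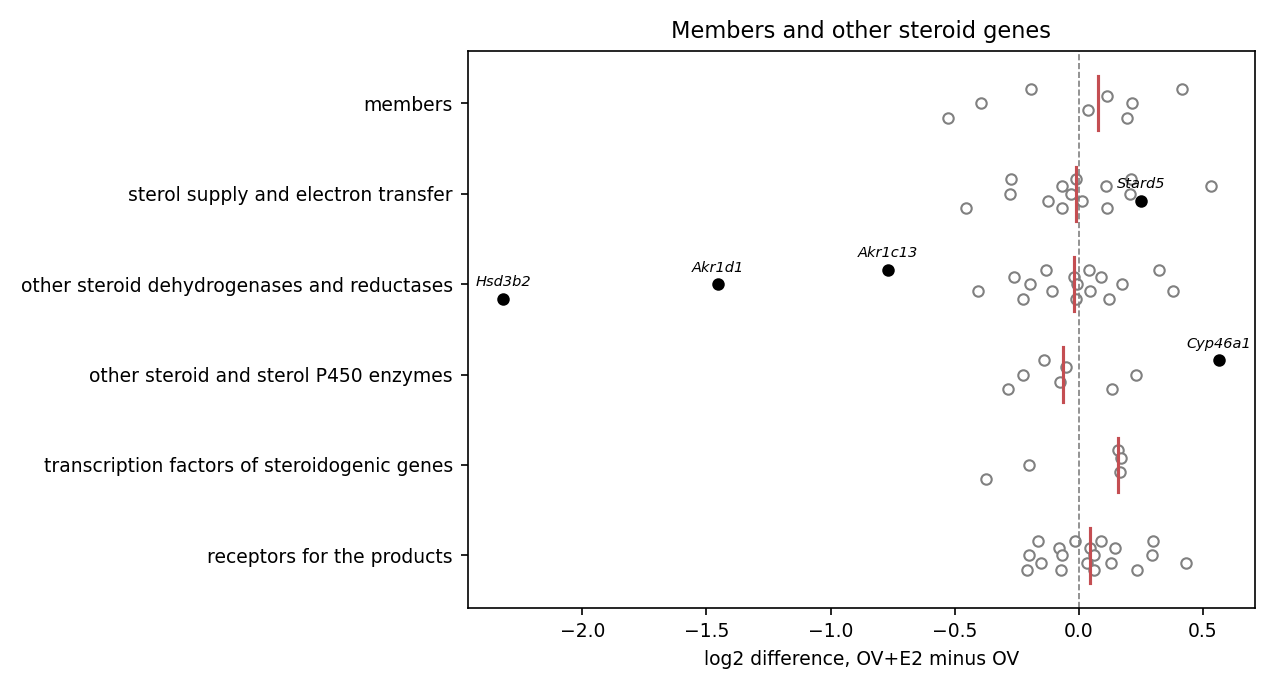
Log2 difference OV+E2 minus OV of the 8 tested member probes and of the tested genes of the 5 steroid lists, 1 point for each gene, with filled points at an unadjusted p under 0.05 and red lines at the list medians. No member is filled, and the filled genes are Stard5, Akr1c13, Hsd3b2, Akr1d1 and Cyp46a1.

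Next by p in the list of sterol supply and electron transfer came Dbi, the ligand of Tspo known as diazepam-binding inhibitor. It differed by −0.46 (SE 0.22), and by −0.20 without OV replicate 3. Other probes of Dbi gave −0.38 and 0.17. Atad3a differed by −0.27 (−0.12 without that array), the mitochondrial channel Vdac2 by 0.21 (0.10) and Hsd17b13 by 0.38 (0.19). The P450 genes Cyp2d4, Cyp1b1 and Cyp21a1 differed by 0.23, −0.28 and −0.22, each by less than 2 SE, and by 0.097, −0.28 and −0.050 without OV replicate 3. Paqr8, a membrane progestin receptor, differed by 0.43 (SE 0.19, limma adjusted p = 0.486) with 0.44 from its second probe, and by 0.22 without OV replicate 3. Paqr5 differed by 0.30 (SE 0.14), with −0.24 from its second probe, the progesterone receptor Pgr by 0.29 (SE 0.21) and Paqr6 by −0.15 (SE 0.12).

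Creb1, a transcription factor that answers cyclic AMP, differed by 0.16 (SE 0.074), and its other probes gave −0.48, 0.17 and −0.23, so the probes share no direction. Crem differed by 0.17 (SE 0.093), with 0.19, 0.15 and 0.84 from other probes. Nr0b1, a repressor of steroidogenic genes, differed by −0.37 (SE 0.36), and by −0.095 without OV replicate 3. Cebpb, which binds promoters of steroidogenic genes, differed by 0.17 (SE 0.20, limma adjusted p = 0.659) in the scanner values, with −0.77 from its second probe. Without OV replicate 3 the first probe gave 0.41 (limma adjusted p = 0.145). From the authors' deposited table it gave 0.41 (SE 0.063, limma adjusted p = 0.0474), 1 of 69 probes called among 30000, and 0.43 without OV replicate 3 (limma adjusted p = 0.141). Nr5a1, which drives steroidogenic genes in adrenal and gonad, was too dim to test.

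Markers of cell types that could carry these enzymes were read beside them, 1 probe for each gene, as summed signal relative to the 75th percentile. The signals were summed on a linear scale, so the brightest gene weighs most. By mean level in OV these were Hba-a1 (7.22) for blood, Ttr (7.40) for choroid plexus and Mbp (9.16) for oligodendrocytes. Mbp differed by −0.65, with 0.25 from its second probe. OV replicate 3 lay above the other OV rats in the sums of microglia, astrocytes, endothelium, choroid plexus, oligodendrocytes and adrenal and gonad markers, and below them in the neuronal sum. Of 10 microglial markers 6 were lower in OV+E2, 4 at an unadjusted p under 0.05, against 7.17% of all probes, and without OV replicate 3, 7 were lower and 3 had such a p, against 8.26%. Microglial sums were 48.5 to 72.3 in OV (to 56.8 without replicate 3) and 45.3 to 50.8 in OV+E2. Itgam differed by −0.58 (SE 0.11), with 0.01 from its second probe, and Aif1 by −0.39 (SE 0.12), with −0.38 from its second.

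All 8 neuronal probes were higher, against 50.2% of all probes, 1 of them at an unadjusted p under 0.05, against 3.21%, and without OV replicate 3, 6 were higher and 2 lower. Of 7 other probes of these neuronal genes 6 were lower. Slc17a7, the transporter that fills glutamate vesicles, differed by 0.30 (−0.11 from its second probe), and Syt1 by 0.65 (0.21 without OV replicate 3, and −0.38 and −0.16 from other probes). Neuronal sums were 125.7 to 167.5 in OV (from 142.1 without replicate 3) and 163.7 to 174.7 in OV+E2. Of 7 blood markers 6 were lower, 5 at an unadjusted p under 0.05, against 7.17% of all probes, and without OV replicate 3 all 7 were lower and 6 had such a p, against 8.26%. Blood sums were 150.3 to 161.1 in OV and 100 to 140.1 in OV+E2, and S100a8 and Slc4a1 differed by −1.15 and −0.68 (−1.08 and −0.43 without OV replicate 3).

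Of 7 endothelial markers 5 were lower, 2 at an unadjusted p under 0.05, against 7.17% of all probes. Without OV replicate 3, 6 were lower and 2 had such a p, against 8.26%. Of 6 other probes of these genes 4 were higher. Slco1a4 differed by −0.37 (0.18 and 0.06 from other probes) and Vwf by −0.60 (0.08 from its second probe, and −0.32 without OV replicate 3). Of 7 meningeal markers 4 were lower, 3 at an unadjusted p under 0.05, against 7.17% of all probes. Without OV replicate 3 all 7 were lower and 5 had such a p, against 8.26%. The smallest p values were those of Col1a1 (−0.62, and −0.69 from its second probe) and Col3a1 (−0.47). Sums without OV replicate 3 were, in OV and OV+E2, 17.6 to 19.2 and 15.2 to 18.2 for endothelium, 23.2 to 30.6 and 19.8 to 23.8 for meninges, 11.4 to 342.9 and 253.7 to 474.3 for choroid plexus, 217.9 to 249.8 and 205.5 to 239.8 for astrocytes, and 597.3 to 755.4 and 502.3 to 652.8 for oligodendrocytes. With that array the highest OV sums were 27.0 for endothelium, 748.5 for choroid plexus, 272.8 for astrocytes and 1520 for oligodendrocytes. The choroid plexus genes Kl and Kcnj13, of smallest p in that list, differed by 0.90 (SE 0.72) and 0.41 (SE 0.33). Of 7 astrocyte markers 5 were lower, none at an unadjusted p under 0.05. Without OV replicate 3, 6 were lower and 2 had such a p, against 8.26% of all probes. Slc1a2 differed by −0.46 (−0.42 from its second probe, and −0.18 without OV replicate 3) and S100b by −0.21 (0.15 from its second probe). All 6 oligodendrocyte markers were lower, 1 at such a p (7.17% of all probes), and likewise without that array (8.26%). Of 8 other probes of these genes 4 were higher. Mobp differed by −0.58 and Mog by −0.34. Of the 8 adrenal and gonad markers Mc2r, Cyp11b2 and Lhcgr were too dim to test, while Cyp11b1, Inha and Insl3 were well above background on all 9 arrays. Of the 5 tested, 3 were higher and 2 lower, 1 of these at an unadjusted p under 0.05, against 7.17% of all probes. Insl3 and Fshr both differed by −0.41 (−0.23 and −0.20 without OV replicate 3). The part of these cells in the values of the steroid genes was not tested.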

How the data were processed

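Each of 9 rats gave 1 Agilent array, labelled with Cy3 alone, and its scanner file was used. Per the file headers, the processed signal of a spot is an intensity after background subtraction by Feature Extraction 10.7.3.1, while the submitters' processing notes name 9.1. From 200 ng of RNA the authors made labelled cRNA, per the labels' protocols. The authors' deposited value table is also an intensity, on a linear scale; its scaling is not given in the sources read. Its column medians were 295.6 to 307.5, and 8 columns follow the scanner values, so genes were not centred.

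Control spots and outlier spots were left out and spots of a probe averaged. Log2 signal minus the 75th percentile of its array was compared with limma 3.58.1 (lmFit and eBayes, R 4.3.3, tables read by version 1.17.8 of data.table) with group as the only term, over the 30215 probes that passed the scanner's background test on 4 or more of 9 arrays. P-values were adjusted by Benjamini-Hochberg over all of these, with 0.05 as threshold. All probes of the members are named, with up to 4 genes of smallest p of each steroid list and, by rule, the 2 of smallest p of each marker list, of which the text gives those of the lists it describes. The members and lists were chosen with earlier results of these data known. Alternatives were normexp (offset 50), quantile and median scaling, other filters, slide or replicate number as a block, the authors' table, and each array left out. The table without OV replicate 3 was added after seeing the data. The script was tested on simulated data. Replicate numbers were not used to pair rats in the main fit. For numbers 1, 2, 3 and 5 deviations correlated at 0.17, −0.0761, −0.011 and 0.105. The same number was the best match for 1 and 5 but not for 2 and 3. Rats of equal number share a slide for 1, 2 and 5, so these values do not decide whether numbers pair rats. The number of arrays limits the precision.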

Additional observations from a re-analysis of the deposited data

Results flagged for a closer look

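Of 26 groups of arrays examined for a single value far from the rest, 1 was marked. For Tspo the scaled level of OV replicate 3 was 0.58, and the other 3 OV rats lay between 0.040 and 0.084. The gap made up 0.918 of the range of the group, above Dixon's critical value of 0.829. Chance marks about 1 in 20 such groups. OV replicate 3 is the array with a 75th percentile of 129.7. Before scaling its Tspo signal was 193.2, against 566.3 to 817.5 on the other arrays. In the authors' deposited table it was 615.4, against 669.4 to 684.0 in the other OV rats.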

How the results depend on the processing

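No member probe reached an adjusted p under 0.05 in any alternative run. Over all probes 69 of 30000 did so in the authors' deposited table and 9 of 45598 with no filter on dim probes. In every other run 0 or 1 did. At an unadjusted p under 0.05 the count, of 8, was 2 with normexp (Cyp11a1 and Hsd11b1; 8.39% of all probes), 1 with slide as a block (7.63%), 1 in the authors' deposited table (18.8%) and 0 to 1 with each array left out in turn (1 without OV replicate 1, against 17.6%, and 1 without OV replicate 5, against 12.4%). With the replicate block it was 0; the numbers are not used as pairs. Cyp11a1 turned to 0.25 within slide 2. Cyp17a1 turned to 0.30 in the authors' table, 0.16 in that table without OV replicate 3 and 0.011 within slide 2, and ran from −1.02 to 0.16 with each array left out. Akr1c14 turned to −0.18 with normexp and −0.046 within slide 2. Of other genes, normexp turned Hsd17b13 to −0.040 and Pgr to −0.091, Cyp21a1 was 0.44 within slide 2, Paqr6 0.055 within slide 1, and S100b 0.0062 with quantile scaling and 0.0089 within slide 2. The causes were not tested. Normexp moved the median of all probes to −0.11, median scaling to 0.11 and no filter to −0.13, and member signs were 4 higher and 4 lower with normexp. Of the member values under alternatives 152 counted as kept and 7 changed sign. For a fit, kept means the same direction and side of the threshold. No member passed the threshold in any fit, so kept there rests on the sign alone and not on the size. Srd5a1, at 0.22 over all 9 arrays and 0.0044 without OV replicate 3, thus counts as kept. For a difference within a slide, which has no p, kept means the same sign and a shift smaller than the SD of the OV rats. The mean over probes of a gene was not run, since no member gene had over 1 tested probe. Low signal over background limits Star, Cyp19a1, Akr1c14 and the second Cyp11a1 probe.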
